A study of Mus musculus with 6 samples.

Results

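Glucocorticoids are steroid hormones of the adrenal cortex that enter cells and bind a receptor in the cytoplasm, which then moves to the nucleus and switches genes on or off. A set of 9 genes was followed here: the receptor gene *Nr3c1* itself and *Zbtb16*, *Sgk1*, *Fkbp5*, *Tsc22d3*, *Per1*, *Klf9*, *Ddit4* and *Apod*, which are known to respond to glucocorticoids in one tissue or another. All 9 gene symbols were found among the 18152 genes of the table, and all 9 were among the 14131 genes that passed the filter on low counts. They were chosen by name with the read counts of these libraries, and the group difference in them, already in view. The differences of the 9 genes are therefore given as a description. Calls of the 9 genes by the fits are counted below, but they are no test of the set.

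At rest the glucocorticoid receptor is held by Hsp90 and its partner chaperones. Bound by hormone, it attaches as a pair to DNA at glucocorticoid response elements, in which the letters AGAACA and their mirror image TGTTCT stand 3 bases apart. Among the genes it is known to induce are *Fkbp5* and *Tsc22d3*, whose products restrain the receptor and inflammation. Before birth the hormone is known for the maturation of organs such as the lung.

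RNA was sequenced from the inner enamel epithelium (IEE) of the mandibular first molar on embryonic day E18.5, from 3 control and 3 cKO samples. The IEE is the cell layer that gives rise to the ameloblasts, the cells that lay down enamel. The controls, called WT in the labels, were *Kdf1 fl/fl* mice, in which both copies of *Kdf1* can be cut but no Cre is present. The cKO mice were *K14-Cre;Kdf1 fl/fl* and carried the same alleles, and Cre driven by the keratin 14 promoter removed *Kdf1* from epithelial cells, in the epidermis and other epithelia as well as in the tooth. Both lines had a C57BL/6J background. No group carried Cre without a *Kdf1* deletion, so an effect of Cre itself cannot be told apart. The IEE was cut from frozen head sections by laser capture microdissection, and whether animals were pooled is not given in the sources used here. The labels call the samples biological replicates, and the p values below measure the spread between them.

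The promoter sequences of the 9 genes were searched for the letters of the response element, because it is what the receptor is known to bind. RefSeq promoters (build GRCm38.p6, 250 bases before and 50 after a start site) were at hand for 7 of the genes, with 15 start sites, and *Zbtb16* and *Nr3c1* were not among them. The full palindrome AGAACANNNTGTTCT occurred on either strand in 3 of 32851 promoters (0.00913%), those of *Acnat2*, *Gm35041* and *Sgk1*. In *Sgk1* it lay at chr10:21993701-21993715, from base 189 before the start site at 21993890. The 250 bases before that start (chr10:21993640-21993889, plus strand) are shown with the palindrome in capitals, together with a second TGTTCT that overlaps the clock element CACGTG by 2 letters near the left end. In GENCODE M21 the stretch covers introns of 5 longer *Sgk1* transcripts and no exon.
Sgk1: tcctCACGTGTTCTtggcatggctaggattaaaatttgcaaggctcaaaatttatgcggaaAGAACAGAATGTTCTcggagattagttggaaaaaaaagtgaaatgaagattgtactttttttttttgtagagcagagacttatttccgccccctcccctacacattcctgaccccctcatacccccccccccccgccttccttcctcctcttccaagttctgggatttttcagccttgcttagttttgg

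The looser core GNACANNNTGTNC was found in 0.475% of all promoters and, among the promoters of the 9 genes, in that same *Sgk1* element alone, which it overlaps. A single arm (AGAACA or TGTTCT) occurred in 19.0% of all promoters and in 4 of the 15, which belong to *Sgk1* and *Tsc22d3*. The clock element CACGTG, read by the CLOCK and BMAL1 proteins, occurred in 7.15% of all promoters and in 3 of the 15, those of *Sgk1*, *Per1* and *Fkbp5*. The stretches that hold the remaining matches are given with the match in capitals, in the order *Sgk1* (chr10:21881977-21882006, plus strand), *Sgk1* (chr10:21992198-21992222, plus strand), *Tsc22d3* (chrX:140600690-140600719, minus strand), *Per1* (chr11:69098771-69098800, plus strand) and *Fkbp5* (chr17:28486301-28486330, minus strand). In GENCODE M21 none of them overlaps an exon.
Sgk1: aagggaatccgtTGTTCTgtgttttctgtg
Sgk1: aaagtgggactcAGAACAgaaaggc
Tsc22d3: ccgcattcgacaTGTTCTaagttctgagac
Per1: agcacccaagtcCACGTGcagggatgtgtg
Fkbp5: gcaagggccagaCACGTGggcagcggtgaa
A match is a run of letters and not a measured binding site, and these windows do not hold distant elements.

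Estimated read counts summed to between 14713918 and 16675133 per library. *Kdf1* was at 44.3 to 52.7 CPM in the control libraries and had 0, 1 and 0 reads in the cKO libraries. CPM are reads scaled to a common library size by the TMM method, and TPM are the deposited values scaled by transcript length. The epithelial label was checked with markers. *Krt14* and *Krt5* were at 1628 to 2944 and 3328 to 4777 TPM in control libraries and at 582 to 1205 and 2129 to 2947 TPM in cKO libraries. Markers of other cells were also detected, and *Dspp*, a dentin protein gene most abundant in odontoblasts, was at 200.1 to 1336 TPM in the controls and 7.35 to 180.8 TPM in the cKO group. Summed TPM of marker lists differed between the libraries. Counts of their genes are to be read beside all genes tested. Of these, 14.5% were higher and 16.2% lower in cKO libraries without overlap of the groups. By the criterion of the study in edgeR, 0.142% were higher and 0.29% lower. The immune list (9 genes, all with a positive log2 fold change, 4 without overlap of the groups) summed to 84.2 to 181.7 TPM in control and 168.7 to 536.5 TPM in cKO libraries. The endothelium list (7 genes, all positive, 2 without overlap) summed to 141.6 to 194.8 and 176.8 to 566.8 TPM. The list of dental papilla and mesenchyme (13 genes, 8 positive, 6 higher and 1 lower without overlap) summed to 2051 to 9930 and 5184 to 6408 TPM. *Col1a1*, its most abundant gene in every library, was at 627.8 to 4161 and 1479 to 2089 TPM, with overlapping groups. By the criterion of the study in edgeR its *Twist1* was higher, at 10.5 to 22.1 TPM in control and 51.5 to 106.7 TPM in cKO libraries. For neutrophils (7 genes, 5 tested, 4 of them higher by the criterion of the study in edgeR) the sums were 18.0 to 23.1 and 144.4 to 372.1 TPM, with *Elane* at 0 reads in 2 control libraries and *Camp* in 1. The sums of the immune, endothelium and neutrophil lists were highest in cKO replicate 1. The dental epithelium list (10 genes, 7 negative, 4 lower without overlap, of which *Cdh1* was lower by the criterion of the study in edgeR) summed to 8701 to 12550 TPM in controls and 5309 to 8660 TPM in cKO libraries. Skeletal muscle markers summed to at most 8.42 TPM in any library. The sums were 47.6 to 57.7 and 56.2 to 143.7 TPM for neural and Schwann cell markers, and 13.3 to 58.5 and 10.3 to 12.7 TPM for keratinised epithelium. The part of these cells in the levels of the 9 genes was not tested, and in such bulk samples more cells of a type cannot be told apart from more RNA per cell.

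**Figure D1:**
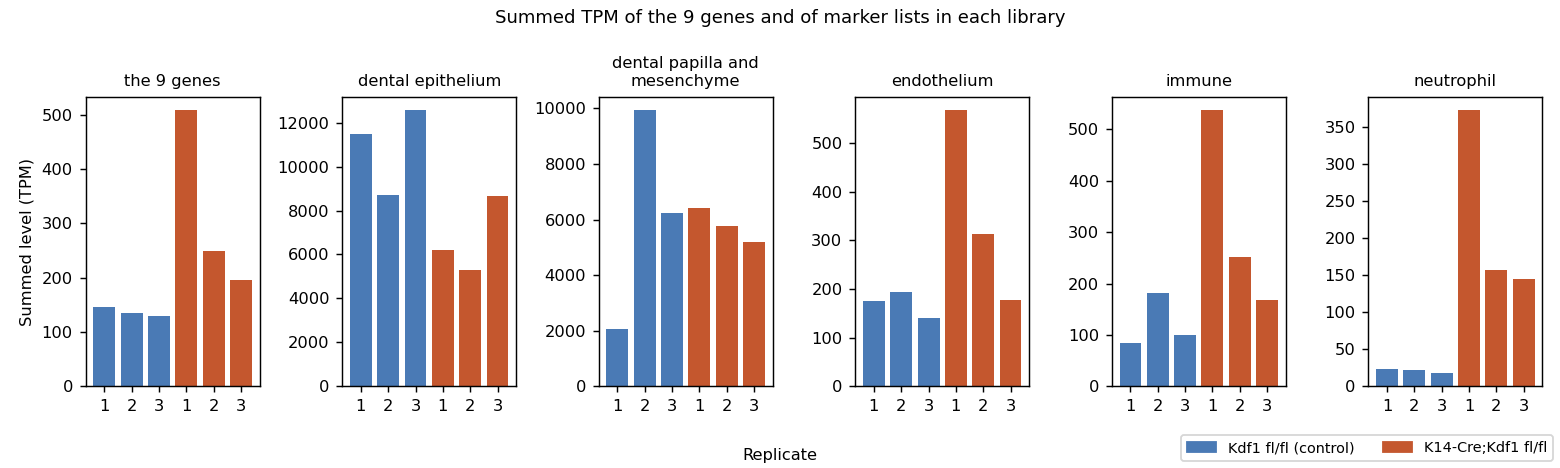
Summed level (TPM, each axis from 0) of the 9 genes and of 5 marker lists in each of the 3 control and 3 cKO libraries, 1 bar per library. Replicate 1 of the cKO group was highest for the 9 genes, at 508 TPM, and for the endothelium, immune and neutrophil lists.

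In the controls, the levels of the 9 genes covered a wide range when scaled by transcript length (TPM). *Ddit4* was highest at 39.4 ± 2.17 TPM (SD, n = 3). It was followed by *Sgk1* at 26.5 ± 4.55 TPM and *Per1* at 24.8 ± 4.46 TPM (SD, n = 3), whose ranges overlapped. *Tsc22d3* came next at 17.4 ± 1.94 TPM, apart from both its neighbours. *Fkbp5* at 9.18 ± 0.749 TPM and *Nr3c1* at 8.89 ± 1.55 TPM overlapped, as did *Apod* at 5.56 ± 0.613 TPM and *Klf9* at 4.82 ± 0.482 TPM (SD, n = 3 for each). *Zbtb16* was the lowest, at 0.507 ± 0.124 TPM.

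Among cKO libraries *Sgk1* stood first, at 97.4 ± 88.0 TPM, with *Per1* at 58.1 ± 18.6 TPM and *Ddit4* at 43.8 ± 14.6 TPM (SD, n = 3). *Klf9* reached 24.3 ± 17.1 TPM, and *Zbtb16* was still last at 4.98 ± 2.98 TPM. The spread was large enough that every neighbour in the order overlapped except *Nr3c1* (11.5 ± 2.28 TPM) and *Zbtb16*.

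*Nr3c1* (gene ID 14815) encodes the receptor on which the response depends. It was at 28.8, 36.2 and 30.3 CPM in control replicates 1, 2 and 3 and at 41.2, 44.8 and 32.3 CPM in cKO replicates 1, 2 and 3. The groups overlapped, since cKO replicate 3 lay below control replicate 2. The log2 fold change of cKO over control, fitted in edgeR, was 0.31 (SE 0.17).

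The transcription factor genes came next. *Zbtb16* (gene ID 235320) encodes PLZF, a zinc finger repressor known from limb patterning, germline stem cells and innate-like lymphocytes. It had 2.76, 1.76 and 2.02 CPM in the controls, from 44, 29 and 32 reads. In the cKO libraries it had 32.3, 12.7 and 15.4 CPM, from 510, 201 and 233 reads. Every cKO library lay above every control library, and the log2 fold change was 3.20 (SE 0.42) and the mean 9.22 times that of the controls. This was the largest log2 fold change of the 9 genes.

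*Klf9* (gene ID 16601), a Krüppel-like factor that is a direct target of the receptor in many tissues, was tightly grouped in the controls at 12.4, 11.8 and 11.2 CPM. It was at 96.6, 37.3 and 33.2 CPM in cKO replicates 1, 2 and 3, again without overlap, and its log2 fold change was 2.23 (SE 0.42). Replicate 1 carried much of this size, since the mean was 4.71 times that of the controls with it and 2.98 times without it.

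*Per1* (gene ID 18626) encodes a repressor of the circadian clock that glucocorticoids induce directly. Control libraries held 78.4, 57.5 and 60.5 CPM and cKO libraries 174.8, 158.8 and 101.9 CPM. The groups did not overlap, and the log2 fold change was 1.15 (SE 0.22). Without cKO replicate 1 it was 1.01.

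*Sgk1* (gene ID 20393) encodes a kinase of the same family as AKT, which PI3K signalling activates through PDPK1 and mTORC2. It was at 40.5, 28.6 and 33.2 CPM in the controls and at 228.6, 67.5 and 52.2 CPM in the cKO libraries. All cKO libraries were above the controls, but replicate 1 had 4.38 times the level of replicate 3. The log2 fold change of 1.77 (SE 0.55) was 0.83 (SE 0.18) without replicate 1, and the ratio of means dropped from 3.40 to 1.75.

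*Ddit4* (gene ID 74747), also known as REDD1, encodes an inhibitor of mTORC1 that stress and glucocorticoids induce. It was at 32.7, 28.8 and 36.7 CPM in controls and at 44.6, 26.1 and 32.6 CPM in cKO libraries. All 3 control values lay inside the range of the cKO values, and the log2 fold change was 0.07 (SE 0.21). Its sign depended on single libraries, as it was -0.14 without cKO replicate 1.

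*Fkbp5* and *Tsc22d3* encode the feedback proteins of the system. FKBP51, the product of *Fkbp5*, lowers the affinity of the receptor for hormone, and GILZ, the product of *Tsc22d3*, restrains inflammatory transcription factors. *Fkbp5* (gene ID 14229) was nearly constant in the controls, at 19.6, 19.5 and 18.9 CPM, and spread over 57.8, 33.4 and 15.7 CPM in the cKO libraries. Of these, replicates 1 and 2 lay above all controls and replicate 3 lay below them. Its log2 fold change was 0.88 (SE 0.41), and 0.36 (SE 0.31) without replicate 1.

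*Tsc22d3* (gene ID 14605) was at 19.2, 20.4 and 18.6 CPM in controls and 60.6, 39.5 and 29.1 CPM in cKO libraries. The groups did not overlap, and the log2 fold change was 1.15 (SE 0.26). Its transcripts also differed in mean length between libraries. The length implied by count, FPKM and library total was 1955, 1896 and 1896 bases in the controls and 2203, 1995 and 1795 bases in the cKO libraries. The longest was 22.8% longer than the shortest, and the groups overlapped. For the other 8 genes this range was at most 1.28%.

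*Apod* (gene ID 11815) encodes apolipoprotein D, a secreted carrier of small lipids. It was at 5.27, 6.12 and 6.001 CPM in controls and at 24.2, 18.6 and 21.6 CPM in cKO libraries. Here the cKO libraries lay close together, with a mean 3.70 times that of the controls and 3.46 times without replicate 1. The log2 fold change was 1.89 (SE 0.18).

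**Figure D2:**
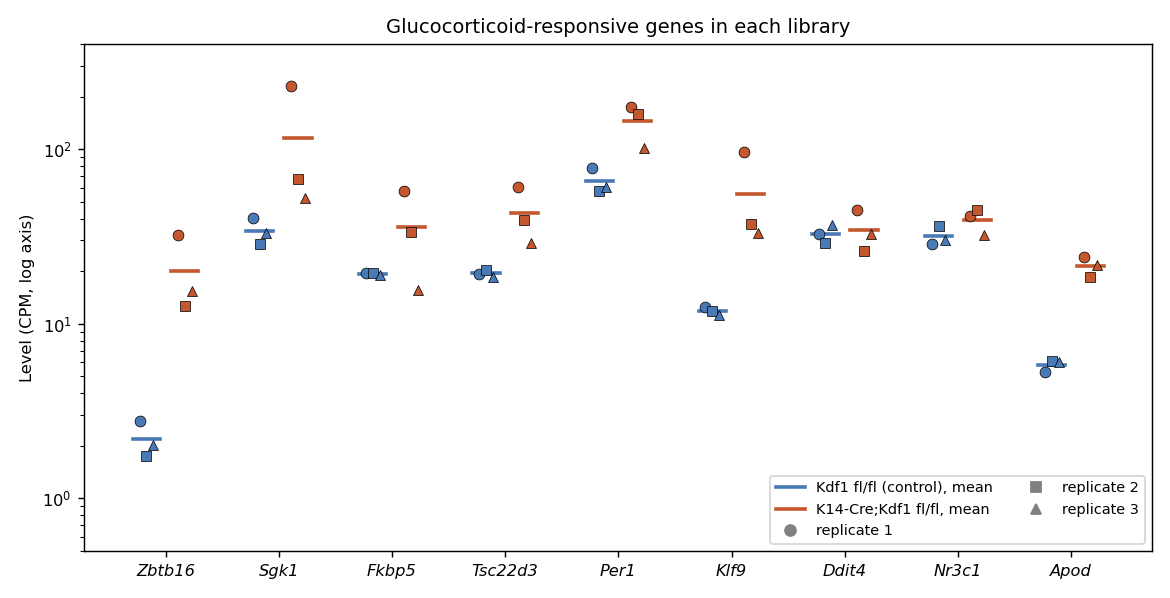
Level of each of the 9 genes in CPM on a log axis, with 1 point per library (circle, square and triangle for replicates 1, 2 and 3) and a line for the mean of the 3 libraries of a group. *Zbtb16*, *Sgk1*, *Tsc22d3*, *Per1*, *Klf9* and *Apod* had all cKO points above all control points, and *Fkbp5*, *Ddit4* and *Nr3c1* did not.

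As a count over the set, 6 of the 9 genes lay higher in each cKO library than in any control library, and none lay lower. Over all genes tested the groups did not overlap in 30.7%, with 14.5% higher and 16.2% lower in cKO libraries. A gene was called where its log2 fold change was 1 or more in size and its adjusted p no higher than 0.05, which is the criterion of the study. By the quasi-likelihood test of edgeR (Benjamini-Hochberg) *Zbtb16* and *Apod*, 2 of 9, were called higher, beside 0.142% of all genes called higher, 0.29% called lower and 0.432% called in either direction. The edgeR adjusted p of *Zbtb16* was just under the limit, at 0.0498 (Benjamini-Hochberg). DESeq2 called 6 of 9 higher, beside 5.05% of all genes higher, 1.88% lower and 6.94% in either direction. By the same limits the paper reports a number of genes closer to that of DESeq2 than to that of edgeR. It does not name the test used. With the replicate number as a block edgeR called 5 of 9 higher, without *Sgk1*, beside 4.16% higher, 1.92% lower and 6.09% in either direction. The labels give no pairing of libraries, and the block was read from these same data. Its values here and below are therefore no separate evidence. The limma-voom fit called 0 of 9. With all 6 libraries none of these fits called *Ddit4*, *Nr3c1* or *Fkbp5*. Since the genes were chosen with this contrast known, nothing is read from these shares. In edgeR the count was 6 without cKO replicate 3, where *Fkbp5* was called and *Sgk1* was not. Over all genes that fit called 465, of which 329 were higher, beside 61 with all 6 libraries. Without any one of the other 5 libraries the count was 0, where 1 to 16 genes were called over all genes.

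**Figure D3:**
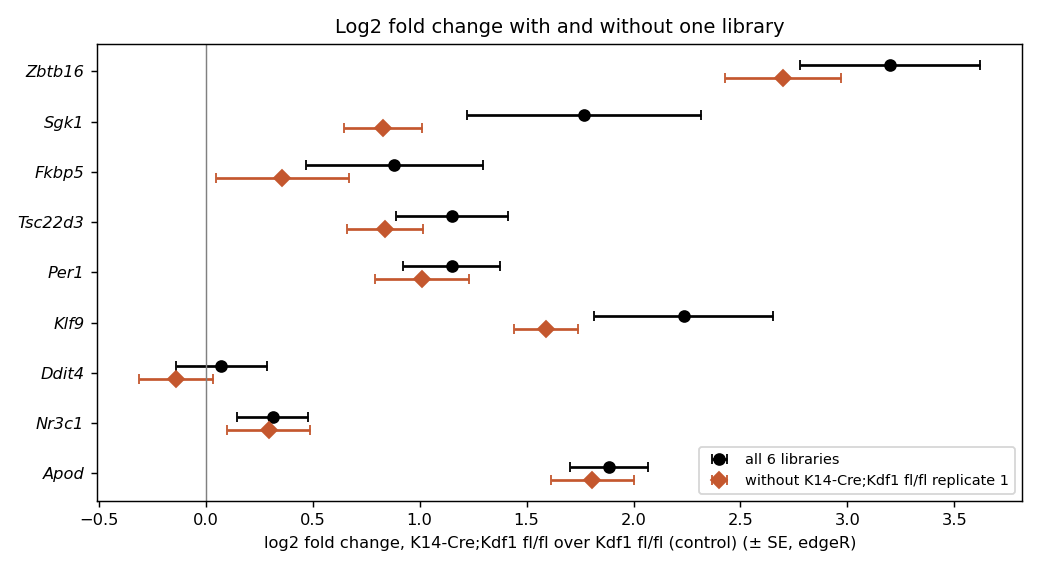
Log2 fold change of cKO over control libraries from edgeR (points, with bars of ± 1 SE) for the 9 genes, with all 6 libraries and without cKO replicate 1. The value of *Sgk1* moved from 1.77 to 0.83 and that of *Apod* from 1.89 to 1.81.

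The libraries of a group were then compared with each other, which does not use the difference between groups, although the genes were chosen with these same libraries in view. Of the 9 genes, 8 had their highest cKO level in replicate 1, where 31.9% of all genes tested did. *Nr3c1* was the exception and was highest in replicate 2. The lowest cKO level was in replicate 3 for 6 genes and in replicate 2 for *Zbtb16*, *Ddit4* and *Apod*. *Sgk1* deviated most, with replicate 1 at 1.296 above and replicate 3 at 0.83 below the mean of log2 CPM of its group.

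All 9 genes had a larger SD of log2 CPM among the cKO libraries than among the controls, as did 70.7% of all genes tested. For *Fkbp5* these SDs were 0.940 and 0.0302, and for *Klf9* 0.843 and 0.0716. The smallest SD in the cKO group was that of *Apod*, at 0.189. The sums of immune, endothelium and neutrophil markers were also highest in replicate 1, as given above, and their part in this order was not tested.

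**Figure D4:**
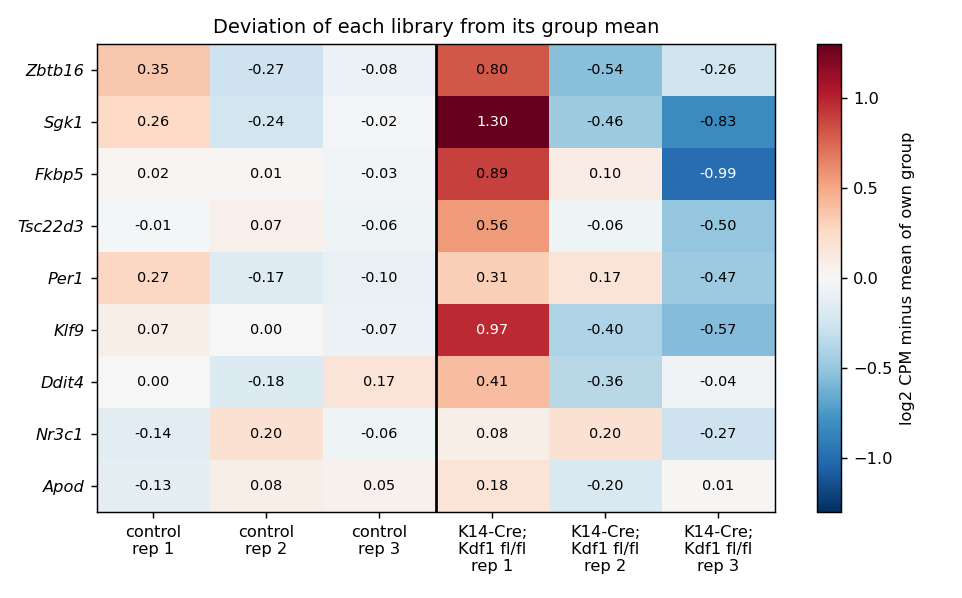
Log2 CPM of each gene in each library minus the mean of the 3 libraries of its own group, as coloured cells with the value printed. Replicate 1 of the cKO group was above its group mean for all 9 genes, from 0.08 for *Nr3c1* to 1.296 for *Sgk1*.

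Over the 6 libraries, Pearson's r of log2 CPM ran from 0.78 to 0.98 in the 15 pairs among the 6 genes whose groups did not overlap. The group difference that these genes share enters every one of those values. *Ddit4*, whose groups overlapped, had r from -0.16 to 0.59 with the other 8 genes. After removal of the group means its r ran from -0.29 with *Nr3c1* to 0.86 with *Zbtb16*. Within groups, using the deviations from the group means, *Sgk1* and *Klf9* had r = 0.98 and *Fkbp5* and *Tsc22d3* had r = 0.98, whereas *Per1* and *Apod* had r = -0.18. The 6 points share replicate 1 of the cKO group, and the values are descriptions.

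Among all genes tested, the pattern over the 6 libraries most like that of *Zbtb16* was found in *S100a8* (r = 0.9961), a neutrophil protein gene. *Tnrc6b*, whose product acts in microRNA silencing, and *Sh3d21* followed at r = 0.9928 and 0.9921. *S100a8* was at 0.691, 0.606 and 0.569 CPM in controls and 8.80, 3.96 and 4.55 CPM in cKO libraries. Its control values rest on 11, 10 and 9 reads, and it is among the neutrophil genes counted above as higher in edgeR. Since *S100a8* was picked here for its likeness to *Zbtb16*, its difference between groups is no separate result. The pattern most like that of *Sgk1* was in *Dll4* (r = 0.9969), a Notch ligand of endothelium, then *Klhl6* (0.9963) and the NF-kB regulator *Nfkbiz* (0.9958). *Dll4* was at 9.04, 6.72 and 7.77 CPM in controls and 26.8, 11.6 and 9.62 CPM in cKO libraries. With so few points, 169 genes had r of at least 0.95 with *Zbtb16* and 202 with *Sgk1*.

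To place the 9 genes, 36 other genes known to be induced by glucocorticoids in several tissues were examined, of which 34 could be tested. This list too was chosen with earlier results of these data known, so its counts are a description. None passed the criterion in edgeR (Benjamini-Hochberg), whereas 16 had an unadjusted p no higher than 0.05, all with higher values in cKO libraries (24.5% of all genes had such a p in either direction). In DESeq2 8 of 34 were called higher and none lower, beside 5.05% of all genes called higher and 1.88% lower. With the replicate block *Cebpd*, *Fam107a*, *Tgm2* and *Il1r2*, 4 of 34, were called higher, beside 4.16% of all genes. The limma-voom fit called none. The median log2 fold change was 0.50, beside -0.0043 over all genes tested and 1.15 over the 9 genes. In 27 genes the log2 fold change was positive and in 7 negative.

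*Il1r2*, the decoy receptor for interleukin 1, had the largest log2 fold change of this list, 4.45 (SE 0.71). It rested on 7 reads in the 3 control libraries together against 157 in the cKO libraries, a ratio of 23.1 per read sequenced with a 95% counting interval of 10.9 to 58.4 from an exact binomial split of the reads. Replicate 1 gave 98 of the 157 reads, and without it the ratio of mean CPM was 13.1 and the log2 fold change 3.65. *Tgm2*, a protein crosslinking enzyme, was at 6.15, 6.12 and 2.72 CPM in controls and 154.7, 15.3 and 27.9 CPM in cKO libraries. Its log2 fold change of 3.72 (SE 0.92) was 2.13 without cKO replicate 1. Adjusted p values were 0.0526 for *Il1r2* and 0.0841 for *Tgm2* in edgeR, and 0.0102 and 0.0410 with the replicate block (Benjamini-Hochberg).

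*Cebpd*, a transcription factor gene of the acute response, was at 4.90, 6.06 and 5.56 CPM in controls and 34.5, 11.1 and 18.46 CPM in cKO libraries, without overlap. The edgeR adjusted p was 0.0679, and 0.0394 with the block (Benjamini-Hochberg). *Fam107a* had a log2 fold change of 2.602 (SE 0.69), from 20 against 120 reads over the groups, and 1.67 without cKO replicate 1. *Cd163*, the haemoglobin scavenger receptor of macrophages, had 2.16 (SE 0.71) from 17 against 75 reads. The value was 3.27 without control replicate 2 and 1.63 without cKO replicate 1. Their edgeR adjusted p values were 0.0917 and 0.132 (Benjamini-Hochberg), and with the block 0.0476 and 0.0836.

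The most abundant genes of the list had smaller log2 fold changes than these. *Nfkbia*, the inhibitor of NF-kB, was at 61.5, 56.9 and 57.3 CPM in controls and 89.8, 80.1 and 98.0 CPM in cKO libraries, a log2 fold change of 0.61 (SE 0.12) that changed little without replicate 1 (0.62). Its adjusted p was 0.0637 in edgeR and 0.0297 with the block (Benjamini-Hochberg). The metallothionein gene *Mt1* had a log2 fold change of 1.28 (SE 0.38) and the cell cycle inhibitor gene *Cdkn1c* 0.90 (SE 0.31), with adjusted p values of 0.113 and 0.142 in edgeR (Benjamini-Hochberg). *Glul*, glutamine synthetase, had 0.29 (SE 0.17, edgeR adjusted p = 0.316, Benjamini-Hochberg). *Tat*, the classic liver target, had too few reads to be tested, as did *Trim63*.

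**Figure D5:**
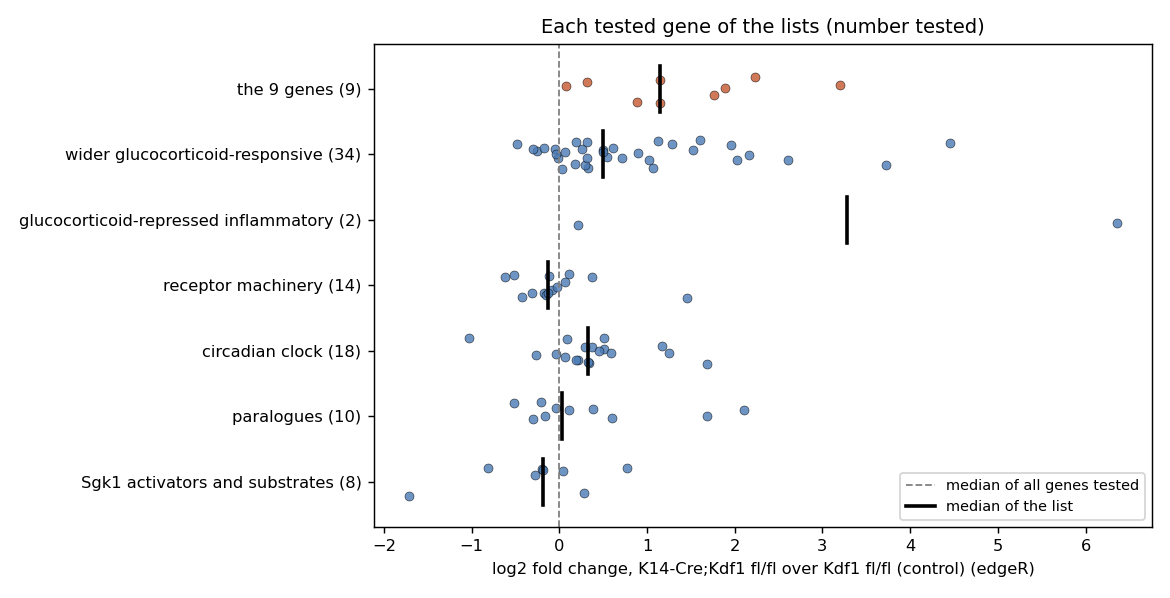
Log2 fold change of cKO over control from edgeR for each tested gene (points) of the 9 genes and of 6 lists of related genes, with the number tested in brackets. Black lines mark the median of each list, 1.15 for the 9 genes and 0.50 for the 34 wider glucocorticoid-responsive genes, and the dashed line marks the median of all genes tested.

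Inflammatory genes that the receptor is known to repress were mostly too low to test. Of 11, 9 were in the table and 2 passed the filter. *Icam1* had a log2 fold change of 0.21 (SE 0.26). The collagenase gene *Mmp13* was at 21.7, 22.6 and 4.11 CPM in controls and 3025, 242.1 and 707.5 CPM in cKO libraries, a log2 fold change of 6.36 (SE 1.17) that was 4.90 without cKO replicate 1. It was not called in edgeR (adjusted p = 0.0637) but was in DESeq2 (7.59e-07) and with the block (0.0224), all Benjamini-Hochberg adjusted. The transcripts of *Il6*, *Il1b* and *Tnf* were at most at 0.53 TPM in any library. *Ccl2*, *Cxcl1*, *Ptgs2* and *Nos2*, also too low to test, were highest in cKO replicate 1, at 4.05, 2.12, 0.78 and 0.99 TPM. The groups did not overlap in *Cxcl1*, with 1, 4 and 2 reads in controls and 12, 8 and 7 in cKO libraries. They overlapped in *Ccl2*, *Ptgs2* and *Nos2*.

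Of the genes that serve the receptor, 14 of 15 were tested and none was called in edgeR or with the block. An unadjusted p no higher than 0.05 was found for 6, beside 24.5% of all genes. Of the 6, 4 had a negative and 2 a positive log2 fold change. The 4 negative ones were genes of chaperones or their partners, but not all such genes of the list were among them. *Stip1*, which joins Hsp70 to Hsp90, was at 190.4, 173.0 and 208.1 CPM in controls and 123.5, 126.0 and 123.8 CPM in cKO libraries, where the log2 fold change was -0.61 (SE 0.11) with an edgeR adjusted p of 0.0582 (Benjamini-Hochberg). *Fkbp4*, whose product FKBP52 works against that of *Fkbp5* at the receptor, had -0.51 (SE 0.15) and *Hsp90aa1* -0.31 (SE 0.11), both without overlap of the groups. *Hspa8* had -0.43 (SE 0.18), also without overlap. The groups overlapped in the chaperone genes *Hsp90ab1* at 0.07 (SE 0.16), *Ptges3* at -0.18 (SE 0.12) and *Dnajb1* at -0.12 (SE 0.10). *Hsd11b2*, the enzyme that inactivates glucocorticoids, had 1.45 (SE 0.48) with overlapping groups. It was the only gene of this list called in DESeq2, beside 6.94% of all genes. *Hsd11b1*, the enzyme that regenerates glucocorticoids, had at most 0.443 CPM. *Nr3c2*, the mineralocorticoid receptor gene, was at 1.20 to 2.91 CPM in all libraries.

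The clock genes around *Per1* were compared because *Per1* belongs to both systems, and the hour at which the embryos were taken is not given in the sources used here. None of the 18 tested was called in edgeR, where 6 had an unadjusted p no higher than 0.05, beside 24.5% of all genes. In DESeq2 3 were called, *Per2* and *Rora* higher and *Bhlhe41* lower, beside 6.94% of all genes in either direction. With the block *Per2* and *Rora* were called, beside 6.09% of all genes. *Per2*, the close relative of *Per1*, was at 3.70, 3.27 and 3.47 CPM in controls and 17.1, 11.4 and 5.08 CPM in cKO libraries, with a log2 fold change of 1.68 (SE 0.43). *Rora*, a nuclear receptor that drives the *Bmal1* gene, was at 15.1, 18.8 and 20.9 CPM against 53.3, 38.1 and 39.2 CPM, with 1.25 (SE 0.19). The edgeR adjusted p values were 0.0867 and 0.0512, and 0.0458 and 0.0198 with the block (Benjamini-Hochberg).

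Other clock genes differed less. *Npas2* had a log2 fold change of 1.17 (SE 0.42) and the repressor gene *Bhlhe41* -1.02 (SE 0.26), with edgeR adjusted p values of 0.150 and 0.0867 (Benjamini-Hochberg). *Nr1d2* had 0.51 (SE 0.17), *Bhlhe40* 0.58 (SE 0.30), *Nfil3* 0.45 (SE 0.24) and *Tef* 0.32 (SE 0.17). *Per3* was at -0.04 (SE 0.19).

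Relatives of 7 of the 9 genes were listed, with none for *Zbtb16* or *Apod*. Of these, *Per2* and *Per3* are also in the clock list, and *Fkbp4* and *Nr3c2* in the list of genes that serve the receptor. The relatives gave a median log2 fold change of 0.03 over 10 tested, with 5 positive and 5 negative. None was called in edgeR, where 6 had an unadjusted p no higher than 0.05, beside 24.5% of all genes. *Per2* and *Ddit4l* were called higher in DESeq2 and with the block, beside 5.05% and 4.16% of all genes. *Ddit4l*, the relative of *Ddit4* that also restrains mTORC1, was at 4.96, 10.2 and 3.10 CPM in controls and 39.3, 25.2 and 14.04 CPM in cKO libraries. The log2 fold change was 2.10 (SE 0.52), with 2.69 without control replicate 2 and 1.69 without cKO replicate 1. Its adjusted p was 0.0842 in edgeR and 0.0194 with the block (Benjamini-Hochberg). For *Sgk3* the log2 fold change was -0.20 (SE 0.28), and *Sgk2* had 1 read in the 6 libraries together.

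Genes of the proteins that activate *Sgk1* or that it acts on were also read. Of 8 tested, none was called in edgeR or with the block, and 4 had an unadjusted p no higher than 0.05, beside 24.5% of all genes. *Ndrg1*, whose product is the usual reporter substrate of the kinase, was at 83.4, 128.7 and 325.8 CPM in controls and 71.8, 31.1 and 61.8 CPM in cKO libraries, with a log2 fold change of -1.71 (SE 0.54) that was -0.95 without control replicate 3. *Nedd4l*, a ubiquitin ligase inhibited by the kinase, had -0.81 (SE 0.24). *Ndrg1* was called lower in DESeq2 (adjusted p = 0.00897, Benjamini-Hochberg), where the edgeR value was 0.125. Over all genes DESeq2 called 1.88% lower. These are transcript levels, and kinase activity was not measured.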

How the data were processed

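RNA-seq was analysed from 3 control and 3 cKO samples. The deposited estimated counts are the authors' reads per gene without normalisation, of which 10.9% to 11.5% per library were not whole, and they were rounded. The deposited TPM and FPKM values are the authors' values scaled by transcript length. The authors' group means were not used. The submitters' processing notes name BWA 0.7.12, Picard 2.6.0 and StringTie without roles, and the genome build is not given in the sources used here.

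Genes were filtered with filterByExpr, scaled by TMM and compared in edgeR 4.0.16 (R 4.3.3) by robust quasi-likelihood F-tests with Benjamini-Hochberg adjustment over 14131 genes. Genes with a log2 fold change of 1 or more in size and an adjusted p no higher than 0.05 were called. The SE of a log2 fold change was taken from its F statistic. The common biological coefficient of variation was 25.4%. A count of 0 allows up to 3 counts, or 0.182 to 0.198 CPM, which is an error of counting alone, as reads copied in PCR are not separate molecules. The fits were tested on simulated data.

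After removal of group means, libraries sharing a replicate number correlated at 0.135, 0.324 and 0.499 across genes. Those with different numbers correlated at -0.410 to 0.144, so that cKO replicate 1 was closer to control replicate 2 than to control replicate 1. The numbers were read as pairs because all 3 values exceeded 0.1. The labels give no pairs, and the highest value between different numbers, 0.144, also exceeded 0.1. This rule therefore does not settle the pairing. A fit with the replicate number as a block was made on that reading. Alternatives were DESeq2 1.42.0, limma 3.58.1 (voom, and log2(TPM + 1) or log2(TPM + 0.1) with a trend), other scalings and filters, and the omission of each library. The 9 genes and all lists were chosen with earlier results of these data known. Named are *Kdf1*, the 9 genes, the 3 genes closest in pattern to *Zbtb16* and to *Sgk1*, and the 4 largest log2 fold changes and 4 highest mean TPM of the wider glucocorticoid and clock lists. Other genes were named after their values were seen.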

Additional observations from a re-analysis of the deposited data

How the results depend on the processing

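The number of genes called over the whole table was 61 in edgeR. It was 980 with DESeq2, 860 with the replicate block, 103 without a filter and 16 with limma on log2(TPM + 1). It was 9 with library size alone, 7 with edgeR scaled by DESeq2 size factors, 6 with at least 10 counts in every library and 6 with limma-voom. Leaving out 1 library gave 1 to 465 genes, the highest without cKO replicate 3. Of the 9 genes, 2 were called in edgeR. The count was 6 with DESeq2, 5 with the replicate block and 0 with limma-voom, and from 0 to 6 with 1 library left out. It was 1 each with edgeR scaled by DESeq2 size factors, library size alone and at least 10 counts in every library. With limma on log2(TPM + 1) and on log2(TPM + 0.1) it was also 1 each. These settings for the 9 genes as a count were chosen after seeing the data.

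For the related lists, where edgeR called 0, DESeq2 called 8 wider glucocorticoid-responsive genes, 1 repressed inflammatory gene, 1 gene of the receptor machinery, 3 clock genes, 2 paralogues and 1 gene of the *Sgk1* list. The replicate block called 4 wider, 1 repressed, 2 clock and 2 paralogue genes and changed no call of the other lists. In both fits *Per2* is counted under the clock genes and again under the paralogues. No filter called 1 wider and 1 clock gene, upper quartile scaling 1 clock gene and limma on log2(TPM + 0.1) 1 wider gene. With 1 library left out the counts were 0 to 1 for the wider, repressed and paralogue lists and 0 to 2 for the clock list.

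The log2 fold change of *Zbtb16* was 1.88 with limma on log2(TPM + 1), a scale that shrinks low genes, and 2.70 to 3.48 with 1 library left out. Those of *Sgk1* and *Klf9* ran from 0.83 to 2.15 and from 1.59 to 2.52 with 1 library left out, the lowest without cKO replicate 1. Of the 9 genes, 8 were positive in all 16 alternatives and *Ddit4* in 14, from -0.14 to 0.27. With FPKM in place of TPM the order of levels in the controls was the same. The cause of the differences between tools was not tested.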
